A study of Mus musculus with 7 samples.

Results

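The genes described here encode 10 receptors for sphingosine 1-phosphate (S1P), for thrombin and related proteases, and for lysophosphatidic acid (LPA), chosen by their symbols among the 38472 genes of an RNA sequencing table of cultured mouse lung endothelial cells (MLEC). They are 3 S1P receptors (*S1pr1*, *S1pr2* and *S1pr3*), 4 protease-activated receptors (*F2r*, *F2rl1*, *F2rl2* and *F2rl3*) and 3 LPA receptors (*Lpar1*, *Lpar4* and *Lpar6*). Cells lacking endothelial adrenomedullin (AM EC-KO, 3 libraries with the letters b, d, g) were compared with wild type cells (WT, 4 libraries with the letters a, c, e, f), all from C57BL/6 mice. In AM EC-KO mice the *Adm* gene is flanked by LoxP sites and is cut by Cre recombinase driven by the VE-cadherin (*Cdh5*) promoter, so *Adm* is intact in cells that never made Cre. MLEC were taken from minced lung with PECAM-1 beads, cultured and sorted again with ICAM-2 beads. The culture medium held fetal calf serum, heparin and an endothelial growth stimulant, so the cells were not free of added factors. No treatment beyond this medium is named for either genotype in the sources used here. Lungs of 3 mice went into an isolation. The study describes separate MLEC preparations without saying which library came from which, so the p-values measure the spread between these libraries, which may be partly technical. The sources used here give no age for the mice.

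All these genes encode members of the G protein-coupled receptor family, which cross the membrane repeatedly, and in vessels several of them affect how tightly EC hold together. S1P, carried in plasma on HDL and albumin, acts on *S1pr1* through Gi proteins and Rac to spread cortical actin and tighten junctions, while *S1pr2* opens them. Protease-activated receptors have no free ligand: a protease cuts the outer end of the receptor and the new end folds back as a tethered ligand. LPA is made outside the cell by autotaxin, and *Lpar4* and *Lpar6* belong to the purinergic-like branch of its receptors, which in mice takes part in vessel sprouting.

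The activation site is where the 4 protease-activated receptors differ most in what they recognise, and its coding sequence is therefore shown for each. In the lines that follow, read 5′ to 3′ on the coding strand from GENCODE M21 transcripts (mouse build GRCm38), capitals mark the 6 codons of the tethered ligand known for that mouse receptor, and the cut falls just before them.
F2r: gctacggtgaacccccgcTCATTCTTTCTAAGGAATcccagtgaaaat
F2rl1: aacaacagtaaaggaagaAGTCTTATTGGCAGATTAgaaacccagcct
F2rl2: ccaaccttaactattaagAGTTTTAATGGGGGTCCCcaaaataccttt
F2rl3: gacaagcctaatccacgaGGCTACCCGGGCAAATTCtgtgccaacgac
The ligand starts at codon 42 of *F2r*, codon 39 of *F2rl1*, codon 38 of *F2rl2* and codon 60 of *F2rl3*. Compared base by base, the ligands of *F2rl1* and *F2rl2* shared 10 of 18 bases, the most of the 6 pairs, and those of *F2r* and *F2rl3*, the receptors through which thrombin itself signals in mice, shared 3 of 18. *F2rl1* (chr13:95511732-95525227, minus strand), *F2r* (chr13:95601803-95618487, minus strand) and *F2rl2* (chr13:95696853-95702739, plus strand) lie side by side, with gaps of 76.6 and 78.4 kb, while *F2rl3* lies alone (chr8:72761880-72763874, plus strand).

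Levels are given as FPKM, the number of mapped reads scaled by the length of the transcript and by the reads of the library, so that genes can be set side by side. The estimated depth was 6.4 to 7.5 M reads per library, which limits the members near 0 most. *Adm*, the deleted gene, was at 9.31, 17.2 and 0.750 FPKM in b, d and g (AM EC-KO), against 48.2, 70.1, 76.1 and 43.8 FPKM in a, c, e and f (WT). The 14 markers of vascular endothelium summed to 3414 to 3934 FPKM in AM EC-KO libraries and 3680 to 4143 FPKM in WT libraries. Of these, 13 were above 0 in all 7 libraries, and by them the endothelial label held. The exception was *Vwf*, named after its values were seen. It was listed at 0 in b, d and g (AM EC-KO) and in a and c (WT), and was at 89.5 and 9.81 FPKM in WT e and f. WT e stood apart: it had the highest or the lowest value of the 7 libraries in 53.9% of the 15604 tested genes, against 21.7 to 26.3% for each other library. Its 10 fibroblast markers summed to 560 FPKM, against 258 to 363 FPKM in the other 6 libraries, mostly through decorin (*Dcn*), at 227 FPKM against 2.83 to 8.47 FPKM; 5 of the 10 had their highest value there, 1 (*Thy1*) had its lowest, and none was listed at 0 in all libraries. Receptor values that rest on WT e are therefore given with and without it.

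Each family was carried by 1 abundant receptor. Averaged over the 7 libraries, *S1pr1* was at 129 FPKM, *F2r* at 96.8 FPKM and *Lpar6* at 29.8 FPKM, and no other member reached 10 FPKM on average. *S1pr1* was above *F2r* in 7 of 7 libraries, although their ranges overlapped, with a ratio of 1.05 to 1.19 in the AM EC-KO libraries and 1.17 to 2.45 in the WT libraries (2.45 in WT e). *F2r* lay above *Lpar6* in every library with no overlap of their ranges, and so did *Lpar6* above *F2rl1*. Next came *F2rl1* (8.90 FPKM) and *S1pr2* (8.41 FPKM), whose order changed between libraries (*F2rl1* higher in 3 of 7), and then *F2rl3* (5.52 FPKM), below *S1pr2* in 6 of 7. *S1pr3* (2.04 FPKM) and *Lpar4* (1.48 FPKM) could not be ordered either (*S1pr3* higher in 3 of 7), and *F2rl2* (0.131 FPKM) lay below *Lpar4* in every library with no overlap.

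**Figure D1:**
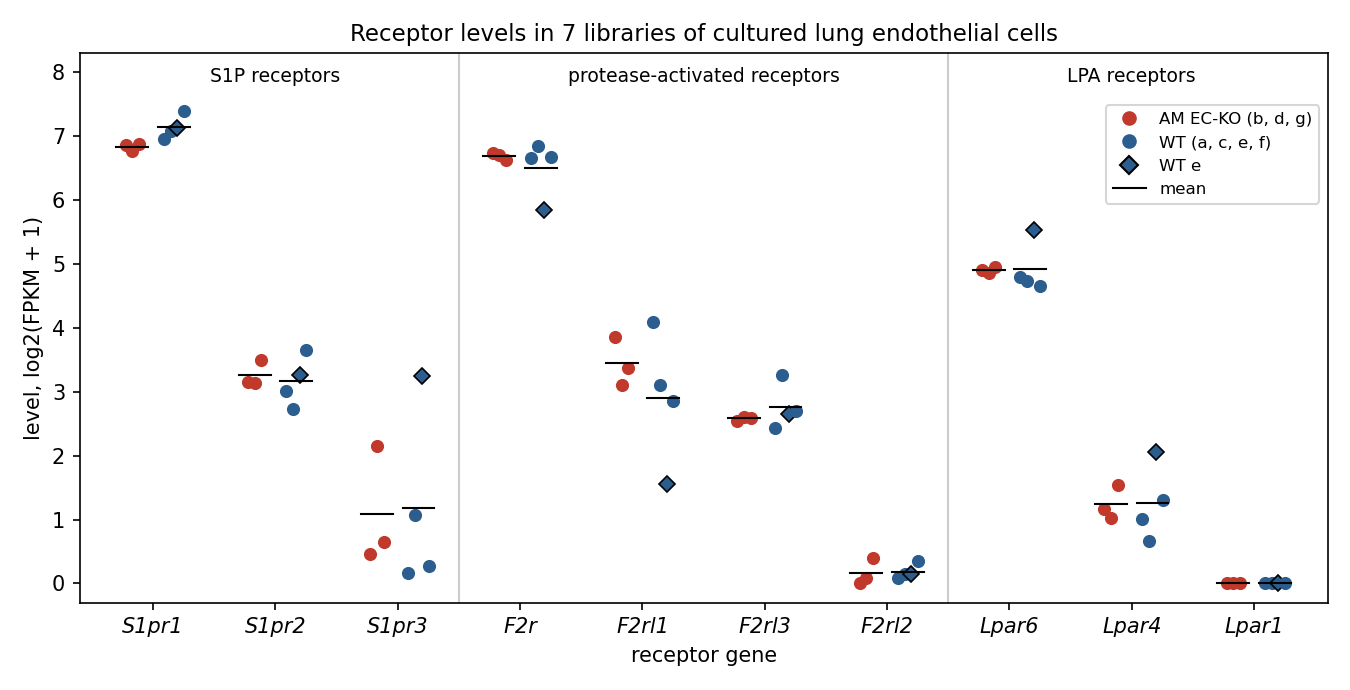
Level of each receptor gene as log2(FPKM + 1) in the AM EC-KO libraries (red, left) and the WT libraries (blue, right), grouped by family; bars are means of the log2 values and the diamond is WT e. *S1pr1* is the only gene with every AM EC-KO library below every WT library, and WT e lies apart from the other WT libraries in *S1pr3*, *F2r*, *F2rl1* and *Lpar6*.

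No receptor of the 9 that could be tested differed between genotypes past a false discovery rate of 0.1. The test was limma on log2(FPKM + 1) with Benjamini-Hochberg adjustment over all 15604 genes averaging 0.1 FPKM or more with values above 0 in at least 3 libraries; 8 of the 9 tested members were above 0 in all 7 libraries, and *Lpar1* was not tested. Their adjusted p ran from 0.95 to 1, and over all tested genes 10, or 0.0641%, were called. At an unadjusted p under 0.05, 1 of the 9 members (*S1pr1*) was counted, beside 3.07% of all tested genes. The difference was below 0 in 6 members and above 0 in 3, with a median of -0.02 on the log2 scale, and over all tested genes 51.8% were below 0 with a median of -0.01. In 1 of the 9 members every AM EC-KO library lay below every WT library, beside 2.22% of all tested genes, and in 0 members did every AM EC-KO library lie above. The exact permutation test over the 35 arrangements of the libraries, with its two-sided p taken by doubling the smaller tail, cannot give a p below 0.057 for a single gene.

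**Figure D2:**
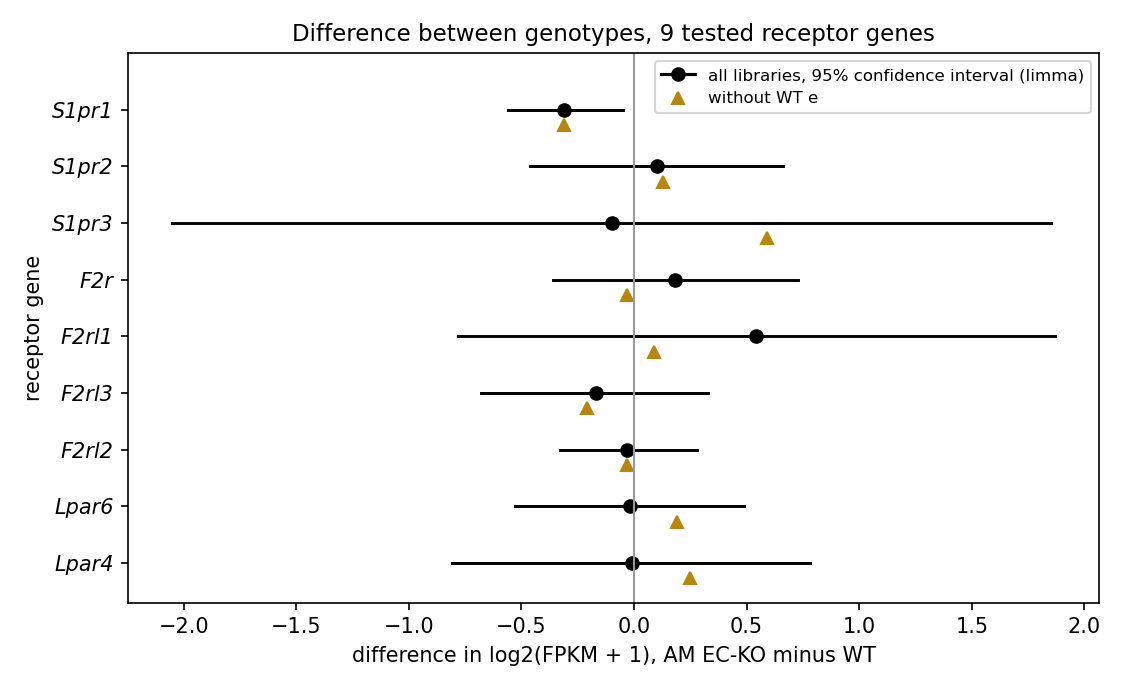
Difference in log2(FPKM + 1), AM EC-KO minus WT, for the 9 tested receptor genes; circles are the estimates from all libraries with their 95% confidence interval (limma), and triangles are the estimates without WT e. The interval of *S1pr1* (-0.56 to -0.05) does not reach 0, those of the other 8 genes include it, and the estimates of *S1pr3*, *F2r*, *Lpar4* and *Lpar6* cross 0 when WT e is left out.

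Of the S1P receptors, *S1pr1* (chr3:115710433-115715072, minus strand) was the most abundant member in every library. It was at 115, 108 and 116 FPKM in b, d and g (AM EC-KO), against 123, 134, 139 and 167 FPKM in a, c, e and f (WT). All 3 AM EC-KO libraries lay below all 4 WT libraries, and the AM EC-KO libraries were the closer together. The means were 113 ± 4.63 FPKM (SD, n = 3) in AM EC-KO MLEC and 141 ± 18.6 FPKM (SD, n = 4) in WT MLEC, a ratio of 0.802. On the log2 scale the difference was -0.31 (SE 0.11, 95% confidence interval -0.56 to -0.05), with an unadjusted limma p of 0.024. After adjustment over all genes p was 0.95 in limma, and the exact two-sided permutation p was 0.057, the smallest this form of the test can give. Without WT e the difference was the same size (-0.31), the unadjusted limma p was 0.040 and the exact permutation p was 0.10, again the smallest possible with 3 libraries against 3. Leaving out AM EC-KO b or d took the unadjusted limma p to 0.054 and 0.081, with differences of -0.32 and -0.27. In such bulk samples, fewer cells carrying a transcript and less of it per cell cannot be told apart. Of 13 tested vascular endothelial markers, 12 had a difference below 0, beside 51.8% of all tested genes, with a median of -0.17. Of these, 1 was below at an unadjusted limma p under 0.05, beside 3.07% of all tested genes in both directions. It was *Egfl7*, a protein secreted by EC, named after its values were seen (log2 difference -0.33, unadjusted limma p 0.036). *Cdh5* was at -0.30 (SE 0.13), while *Pecam1*, *Eng*, *Kdr* and *Icam2* lay between -0.06 and -0.01. The vascular sums overlapped between genotypes. The 7 lymphatic endothelial markers summed to 152 to 206 FPKM in AM EC-KO libraries and 216 to 293 FPKM in WT libraries, without overlap. Singly, every marker overlapped between genotypes, and 4 had a difference below 0 and 3 above. *Lyve1* was at 28.2 to 45.2 FPKM in AM EC-KO libraries and 36.8 to 157 FPKM in WT libraries. *Pdpn* went the other way, with a log2 difference of 0.53 (SE 0.51). The part of these cell types in the *S1pr1* values was not tested.

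*S1pr2* (chr9:20962361-20976781, minus strand), the receptor that opposes *S1pr1* at the junction, was more than 10 times lower. It was at 7.90, 7.79 and 10.3 FPKM in b, d and g (AM EC-KO), against 7.08, 5.63, 8.56 and 11.6 FPKM in a, c, e and f (WT). The AM EC-KO values lay within the WT range. Between genotypes the log2 difference was 0.10 (SE 0.24, 95% confidence interval -0.46 to 0.66, adjusted limma p 0.97), an interval that runs from 0.727 to 1.58 as a fold of FPKM + 1. Within a library *S1pr1* was 11.3 to 14.5 times *S1pr2* in AM EC-KO MLEC and 14.4 to 23.8 times in WT MLEC, ranges that overlapped narrowly.

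*S1pr3* (chr13:51408639-51422797, plus strand), which signals through several G protein classes and is known from smooth muscle, pericytes and EC, was the most uneven member. It was at 0.371, 3.45 and 0.573 FPKM in b, d and g (AM EC-KO), against 0.122, 1.09, 8.49 and 0.208 FPKM in a, c, e and f (WT). WT e and AM EC-KO d stood above all other libraries, 1 in each genotype, and the groups overlapped throughout. From the estimated depth these values correspond to about 261 reads in WT e and 111 in AM EC-KO d, down to 3.82 in WT a. The means were 1.46 ± 1.72 FPKM (SD, n = 3) in AM EC-KO MLEC and 2.48 ± 4.03 FPKM (SD, n = 4) in WT MLEC. The log2 difference was -0.10 (SE 0.82, 95% confidence interval -2.05 to 1.85, adjusted limma p 0.99). Without WT e the WT mean was 0.473 ± 0.535 FPKM (SD, n = 3) and the difference was 0.59 (SE 0.51, adjusted limma p 1), of opposite sign.

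The libraries stood in 1 order for *S1pr3* and for *Des*, which encodes desmin, the intermediate filament protein of muscle cells and pericytes, and which was in the marker list of those cells. *Des* was at 0.488, 7.32 and 0.791 FPKM in b, d and g (AM EC-KO), against 0.0463, 2.12, 9.25 and 0.215 FPKM in a, c, e and f (WT). Both genes ran from WT e through AM EC-KO d, WT c, AM EC-KO g, AM EC-KO b and WT f to WT a. The same order held for 7 of the 15604 tested genes, *S1pr3* included, or 0.0449%, and for 1 of the 10 smooth muscle and pericyte markers (*Des*, picked out after the values were seen). *Pdgfrb*, a receptor gene of the same marker list, was also highest in WT e (16.4 FPKM) and next in AM EC-KO d (9.64 FPKM), with 3.77 to 6.66 FPKM in the other 5 libraries. *Des* and *Pdgfrb* were the only 2 of the 10 markers with WT e first and AM EC-KO d second, and *Tagln* was lowest in WT e, at 190 FPKM against 247 to 446 FPKM. The 10 markers together summed to 501 to 675 FPKM in AM EC-KO libraries and 330 to 628 FPKM in WT libraries, with *Abcc9* listed at 0 in all. WT e had the highest value in 6 of the 10 but, at 481 FPKM, not the highest sum. An order with WT e first and AM EC-KO d second was not particular to this list. Among fibroblast markers it also held for *Col1a1* (63.4 and 32.9 FPKM), *Col1a2* (83.1 and 49.5 FPKM) and *Pdgfra* (7.72 and 4.93 FPKM). It did not hold for *Dcn*, *Col3a1* or *Thy1*. Single markers of other lists had it too (*Flt1*, *Mmrn1* and *Csf1r*). All of these were looked up after the values were seen. The part of any of these cell types in the *S1pr3* values was not tested.

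**Figure D3:**
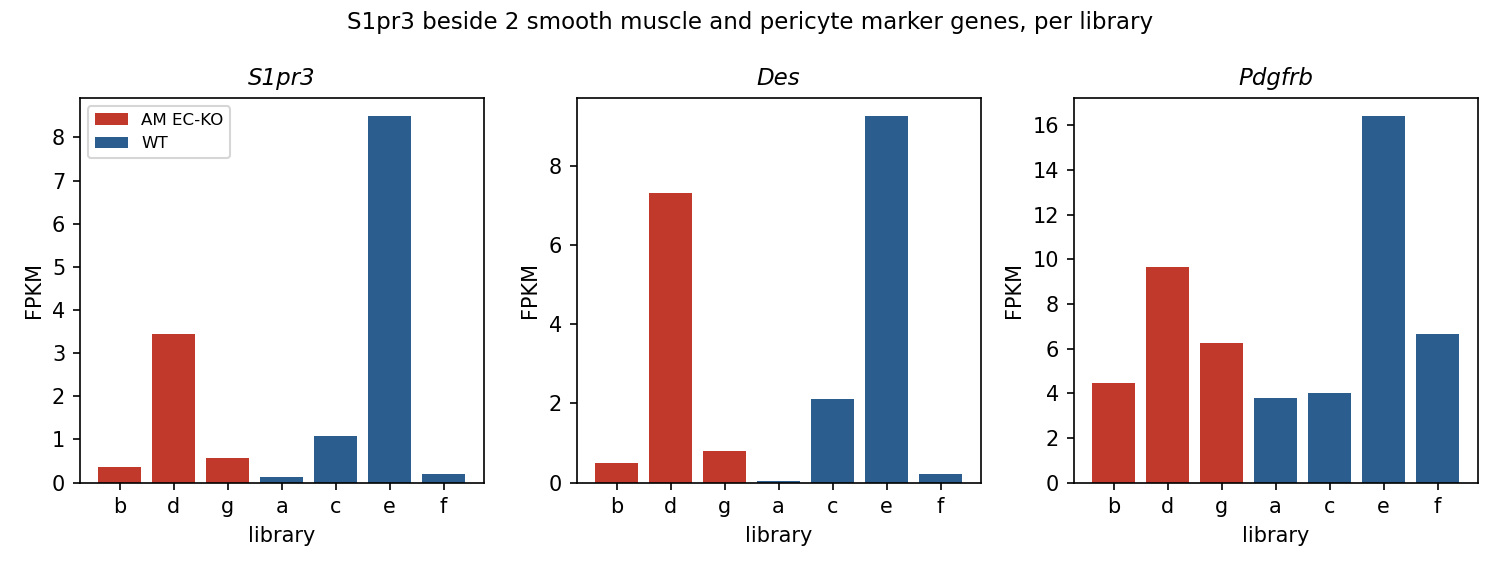
FPKM of *S1pr3* and of the smooth muscle and pericyte markers *Des* and *Pdgfrb* in each library, with AM EC-KO in red on the left and WT in blue on the right. All 3 genes were highest in WT e and second in AM EC-KO d, where *S1pr3* was at 8.49 and 3.45 FPKM. *Des* and *Pdgfrb* are the only 2 of the 10 markers of that list with this order, so no marker that differs is shown.

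Of the protease-activated receptors, *F2r*, which encodes PAR1, the main thrombin receptor of EC, was at 106, 103 and 97.7 FPKM in b, d and g (AM EC-KO), against 99.6, 114, 56.7 and 101 FPKM in a, c, e and f (WT). WT e was the low library, and the other 6 lay between 97.7 and 114 FPKM with the genotypes mixed. The means were 102 ± 4.19 FPKM (SD, n = 3) in AM EC-KO MLEC and 92.7 ± 24.9 FPKM (SD, n = 4) in WT MLEC. On the log2 scale the difference was 0.18 (SE 0.23, 95% confidence interval -0.36 to 0.73, adjusted limma p 0.95). Without WT e the WT mean was 105 ± 8.10 FPKM (SD, n = 3) and the difference was -0.03 with an SE of 0.07 (adjusted limma p 1).

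*F2rl1* encodes PAR2, which is cut by trypsin-like proteases and by the tissue factor complex rather than by thrombin. It was at 13.5, 7.58 and 9.39 FPKM in b, d and g (AM EC-KO), against 16.0, 7.59, 1.93 and 6.27 FPKM in a, c, e and f (WT). WT held both the highest and the lowest library, and WT e was again the low one. Between genotypes the log2 difference was 0.54 (SE 0.56, 95% confidence interval -0.78 to 1.87, adjusted limma p 0.95), the largest difference among the tested members but no larger than its error. Without WT e it was 0.09, with a WT mean of 9.97 ± 5.30 FPKM (SD, n = 3) beside 10.2 ± 3.02 FPKM (SD, n = 3) in AM EC-KO MLEC. *F2r* exceeded *F2rl1* by 7.86 to 13.5 times in AM EC-KO libraries and by 6.21 to 29.4 times in WT libraries.

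*F2rl3* encodes PAR4, the receptor through which thrombin signals in mouse platelets. It was at 4.83, 5.09 and 5.03 FPKM in b, d and g (AM EC-KO), against 4.39, 8.55, 5.26 and 5.46 FPKM in a, c, e and f (WT). WT c was the high library and the other 6 lay between 4.39 and 5.46 FPKM. The log2 difference was -0.17 (SE 0.21, 95% confidence interval -0.68 to 0.33, adjusted limma p 0.95), and -0.01 without WT c. The platelet marker *Pf4* was at 3.0 to 6.58 FPKM in AM EC-KO libraries and 2.35 to 4.58 FPKM in WT libraries, with 3.82 FPKM in WT c, where *F2rl3* was highest. The 8 platelet and megakaryocyte markers summed to 40.0 to 46.8 FPKM in AM EC-KO libraries and 50.2 to 97.0 FPKM in WT libraries. Most of that sum came from *Itgb3*, an integrin subunit that EC also make, and *Gp6* was listed at 0 in all libraries. The part of platelets in the *F2rl3* values was not tested.

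*F2rl2*, which encodes PAR3, a helper that in mouse platelets presents thrombin to PAR4, was at the limit of the depth. It was at 0, 0.0553 and 0.314 FPKM in b, d and g (AM EC-KO), against 0.0569, 0.107, 0.112 and 0.274 FPKM in a, c, e and f (WT). A single read is worth 0.0533 to 0.0625 FPKM of this transcript, so the libraries held about 0, 1 and 5 reads in b, d and g (AM EC-KO) and about 1, 2, 2 and 5 reads in a, c, e and f (WT). On the log2 scale the difference was -0.03 (SE 0.13, adjusted limma p 0.98), or -0.28 and -1.11 with pseudocounts of 0.1 and 0.01. A difference between genotypes was not detectable at this depth. The gene lies inside *Iqgap2* on the opposite strand, which was at 2.17 to 2.47 FPKM in AM EC-KO libraries and 2.0 to 3.06 FPKM in WT libraries. Whether reads were counted by strand is not given in the sources used here, so the few *F2rl2* reads cannot be assigned to it with certainty.

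Of the LPA receptors, *Lpar6* (chr14:73237895-73243294, plus strand) was at 29.0, 28.0 and 30.1 FPKM in b, d and g (AM EC-KO), against 26.7, 25.6, 45.3 and 24.1 FPKM in a, c, e and f (WT). WT e was far above the rest, and the other 3 WT libraries lay below all 3 AM EC-KO libraries. The means were 29.1 ± 1.06 FPKM (SD, n = 3) in AM EC-KO MLEC and 30.4 ± 9.99 FPKM (SD, n = 4) in WT MLEC. Between genotypes the log2 difference was -0.02 (SE 0.22, 95% confidence interval -0.53 to 0.49, adjusted limma p 0.99). Without WT e the WT mean was 25.4 ± 1.31 FPKM (SD, n = 3), and the log2 difference was 0.19 (SE 0.07), of opposite sign, with an unadjusted limma p of 0.036 and an adjusted limma p of 1. The exact two-sided permutation p was then 0.10, the smallest that 3 libraries against 3 allow. *Lpar6* is a gene of 1 exon that lies inside *Rb1*, on the opposite strand. *Rb1* was at 0.663 to 1.20 FPKM in AM EC-KO libraries and 0.342 to 2.22 FPKM in WT libraries, with its highest value in WT f, where *Lpar6* was lowest.

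*Lpar4* (chrX:106920625-106933900, plus strand), the closest relative of *Lpar6* measured here, was more than 10 times lower. It was at 1.23, 1.04 and 1.90 FPKM in b, d and g (AM EC-KO), against 1.01, 0.578, 3.14 and 1.47 FPKM in a, c, e and f (WT). WT e was the highest library, as in *Lpar6*, and the groups overlapped. The log2 difference was -0.01 (SE 0.34, 95% confidence interval -0.81 to 0.78, adjusted limma p 1), and 0.25 without WT e. WT e was thus the highest of the 7 libraries in 3 members (*S1pr3*, *Lpar4* and *Lpar6*) and the lowest in 2 (*F2r* and *F2rl1*). That makes 5 of the 9 tested members, near the 53.9% of all tested genes with WT e as the highest or lowest library. The summed fibroblast markers, with *Dcn* and 5 of the 10 genes in all, were highest in the same library. So were the sums of lung epithelium markers (25.2 FPKM, against 14.0 to 19.7 FPKM) and of platelet and megakaryocyte markers (97.0 FPKM, against 40.0 to 59.1 FPKM). Single genes carried these sums. Of 9 lung epithelium markers, 3 were highest in WT e, *Sftpc* (10.3 FPKM, 0 elsewhere) among them, and 2 lowest, *Krt18* (11.7 FPKM) among them. Of 8 platelet and megakaryocyte markers, 2 were highest in WT e, *Itgb3* (91.5 FPKM) among them, and 2 lowest, *Pf4* (2.35 FPKM) among them. The mesothelium sum was lowest there (2.16 FPKM, against 23.3 to 59.5 FPKM), mostly through *Krt19*, at 1.75 FPKM against 15.8 to 59.0 FPKM. The part of any of these cell types in the receptor values was not tested.

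*Lpar1* (chr4:58435255-58553898, minus strand), the LPA receptor best known from fibroblasts and nerve sheath cells, is listed at 0 in all 7 libraries. The authors' value for each genotype as a group is not 0, at 2.62 FPKM in AM EC-KO and 2.64 FPKM in WT, so the 0 values cannot be read as absence. The same holds for *Gnas* and *Tiam1*, 2 genes of the pathway lists that are also listed at 0 in all libraries and were picked out after their values were seen. The authors' group value of *Gnas* was 827 FPKM in AM EC-KO and 722 FPKM in WT. No difference can be given for *Lpar1* from the libraries.

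The share of the leading gene in its family overlapped between genotypes in all 3 families. *S1pr1* made up 91.8 ± 1.39% of the summed FPKM of the 3 S1P receptors in AM EC-KO MLEC and 93.0 ± 2.76% in WT MLEC (SD, n = 3 and 4), between 89.1 and 95.2% in all. The S1P receptor sums were 123, 119 and 127 FPKM in b, d and g (AM EC-KO), against 131, 141, 156 and 179 FPKM in a, c, e and f (WT). *S1pr2* made up 7.03 ± 0.944% of that sum in AM EC-KO MLEC and 5.35 ± 1.02% in WT MLEC, with overlapping ranges. *F2r* made up 87.0 ± 1.85% of the protease-activated receptor sum in AM EC-KO MLEC and 87.1 ± 2.87% in WT MLEC. *Lpar6* made up 95.5 ± 1.24% of the LPA receptor sum in AM EC-KO MLEC and 95.5 ± 1.96% in WT MLEC, with *Lpar1* at its listed 0. As those 0 values cannot be read as absence, the true share of *Lpar6* may be lower. In WT e the shares of *F2r* (88.6%) and *Lpar6* (93.5%) stayed near those of the other libraries, although the sums did not: 64.0 FPKM against 112 to 130 FPKM for the protease-activated receptors, and 48.4 FPKM against 25.5 to 32.0 FPKM for the LPA receptors. These shares and sums are a description and were not tested.

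**Figure D4:**
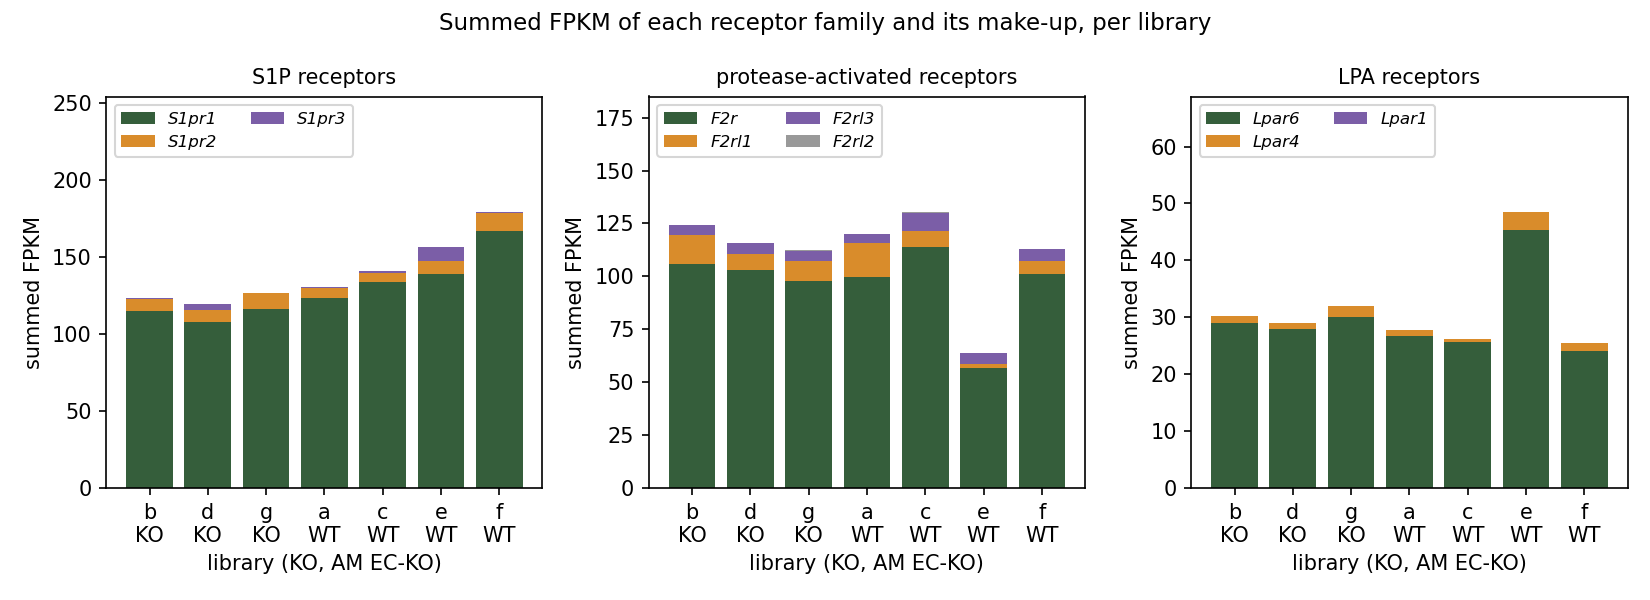
Summed FPKM of the S1P, protease-activated and LPA receptor genes in each library, AM EC-KO on the left and WT on the right, with colours for the genes that make up each sum. *S1pr1*, *F2r* and *Lpar6* fill most of every bar, the S1P receptor sums of AM EC-KO (119 to 127 FPKM) lie below those of WT (131 to 179 FPKM), and WT e is low for the protease-activated and high for the LPA receptors.

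The genes around the receptors were read from 8 lists with 79 genes, all in the table, of which 59 could be tested. None passed a false discovery rate of 0.1 in either direction (limma), 1 was above and 0 below at an unadjusted p under 0.05, where all tested genes had 3.07% in both directions, and 32 had a difference above 0 and 27 below. Of the other receptors of these families, *S1pr4* was the only 1 of 5 above the filter, at 0.702 ± 0.136 FPKM in AM EC-KO MLEC and 1.27 ± 0.815 FPKM in WT MLEC (SD, n = 3 and 4), and *Lpar5* was listed at 0.

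Among the 13 genes that make, export or break down S1P, 8 were tested and 5 had a difference above 0. The 5 include the S1P kinases *Sphk1* and *Sphk2*, named after their values were seen. *Sphk1* is listed at 0 in WT f (7.55 FPKM or more elsewhere) and *Sphk2* in WT e (10.8 FPKM or more elsewhere). Their log2 differences were 1.04 (SE 0.94) and 0.88 (SE 0.94), and no direction was read from them. For *Sphk1* the authors' group values were 14.0 FPKM in AM EC-KO and 10.4 FPKM in WT. For *Sphk2* they were 13.2 and 13.7 FPKM. *Asah1*, the lysosomal acid ceramidase that frees the sphingosine from which S1P is made, was at 121, 122 and 123 FPKM in b, d and g (AM EC-KO), against 105, 96.0, 77.1 and 96.9 FPKM in a, c, e and f (WT). All AM EC-KO libraries lay above all WT libraries, as in 2.91% of all tested genes. On the log2 scale the difference was 0.39 (SE 0.11), with an unadjusted limma p of 0.0084 and an adjusted limma p of 0.95. *Sgpl1*, the lyase that destroys S1P, was at 37.8 ± 1.99 FPKM in AM EC-KO MLEC and 31.8 ± 4.46 FPKM in WT MLEC, and *Sgpp1*, an S1P phosphatase, and *Asah2*, the neutral ceramidase, differed by 0.21 (SE 0.17) and -0.14 (SE 0.13) on the log2 scale. *Spns2*, through which EC export S1P, was named after its values were seen because its level was near that of *S1pr1*: 93.2 to 118 FPKM in AM EC-KO libraries and 75.8 to 162 FPKM in WT libraries.

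All 6 genes that make LPA or remove its phosphate were tested, and 2 had a difference above 0. *Enpp2*, which encodes autotaxin, was at 2.28, 1.29 and 1.19 FPKM in b, d and g (AM EC-KO), against 2.93, 1.70, 6.69 and 2.87 FPKM in a, c, e and f (WT), and WT e was the high library, as for *Lpar6*. Its log2 difference was -0.73 (SE 0.36, adjusted limma p 0.95), and -0.44 without WT e. *Plpp1*, a surface phosphatase for LPA and S1P, was at 187 to 213 FPKM in AM EC-KO libraries and 89.2 to 203 FPKM in WT libraries, lowest in WT e, with a log2 difference of 0.35 and of 0.07 without WT e. In the same list *Plpp3*, its relative, differed by -0.26 (SE 0.16) and *Liph*, a lipase that makes LPA, by -0.38 (SE 0.18) on the log2 scale.

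Of 12 genes that make or control thrombin, 8 were tested and 4 were listed at 0, among them prothrombin itself (*F2*). *Procr*, the endothelial protein C receptor, which brings protein C to PAR1, was the most abundant gene of the list, at 568, 570 and 549 FPKM in b, d and g (AM EC-KO), against 537, 580, 214 and 535 FPKM in a, c, e and f (WT). It was low in WT e as *F2r* was, and its log2 difference was 0.37 (SE 0.35, adjusted limma p 0.95), and 0.03 without WT e. *Thbd*, thrombomodulin, which turns thrombin towards protein C, was at 111 ± 14.8 FPKM in AM EC-KO MLEC and 97.5 ± 27.5 FPKM in WT MLEC (SD, n = 3 and 4). *St14*, the protease matriptase, which can cut PAR2, differed by 0.37 (SE 0.39), or 0.09 without WT e, and *Serpinc1*, antithrombin, by 0.07 (SE 0.10) on the log2 scale.

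Downstream of the receptors, 8 of 10 G protein alpha subunit genes were tested, with 4 above 0 and 4 below. *Gnai1* was at 5.28 ± 0.934 FPKM in AM EC-KO MLEC and 4.07 ± 0.347 FPKM in WT MLEC (SD, n = 3 and 4), and *Gna11*, *Gnai3* and *Gna14* differed by 0.12 (SE 0.09), -0.06 (SE 0.08) and -0.26 (SE 0.23) on the log2 scale, the last being -0.08 without WT e. The phospholipase genes *Plcb1*, *Plcb3* and *Plcb4* differed by 0.22 (SE 0.18), -0.29 (SE 0.29) and -0.24 (SE 0.28) on the log2 scale. Without WT e *Plcb3* was at -0.03, and with 1 library left out *Plcb4* ran from -0.50 to -0.10.

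Of 14 genes of receptor desensitisation and RGS proteins, 11 were tested, with 7 above 0. *Rgs2*, which ends Gq signalling, was at 53.5, 50.7 and 44.4 FPKM in b, d and g (AM EC-KO), against 38.7, 38.9, 39.5 and 10.1 FPKM in a, c, e and f (WT). All AM EC-KO libraries lay above all WT libraries, as in 2.91% of all tested genes, and WT f was far below the rest. The log2 difference was 0.79 (SE 0.47, adjusted limma p 0.95). Without WT f it was 0.33, with an unadjusted limma p of 0.010, and it did not pass a false discovery rate of 0.1. *Arrb1*, an arrestin that uncouples and internalises receptors, is listed at 0 in AM EC-KO b and in WT c, e and f while the other 3 libraries lay between 19.4 and 24.3 FPKM, so that no difference was read from it. *Rgs5* and the receptor kinase *Grk3* differed by 0.22 (SE 0.15) and 0.28 (SE 0.23) on the log2 scale.

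The 4 factors of endothelial flow response, among them *Klf2*, which drives *S1pr1* and thrombomodulin, were all tested, with 2 above 0. *Mef2c* was at 1.95, 2.29 and 1.96 FPKM in b, d and g (AM EC-KO), against 2.38, 2.38, 2.51 and 2.83 FPKM in a, c, e and f (WT). All AM EC-KO libraries lay below all WT libraries, as for *S1pr1* and as in 2.22% of all tested genes. The log2 difference of *Mef2c* was -0.20 (SE 0.14, adjusted limma p 0.95). *Klf2*, *Klf4* and *Foxo1* differed by 0.27 (SE 0.24), 0.25 (SE 0.29) and -0.20 (SE 0.20), and each overlapped between genotypes. Without WT e *Klf2* was at 0.06 and *Klf4* at -0.01, and without AM EC-KO g *Foxo1* was at -0.05.

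The pattern of *S1pr1* over the 7 libraries was compared with that of 8521 genes above 0 in every library that averaged 5 FPKM or more, by the root mean square difference of log2(FPKM + 1) after each gene's mean was taken off. The nearest was *Gm13328*, a predicted gene, with a difference of 0.043, followed by *Mcm3*, a subunit of the replication helicase, with 0.063, and *Tmem135*, a membrane protein gene, with 0.064. For scale, the values of *S1pr1* deviated from their own mean by 0.196 and those of the median gene by 0.255. *Mcm3* was at 20.2, 20.1 and 22.5 FPKM in b, d and g (AM EC-KO), against 21.5, 22.6, 24.7 and 29.0 FPKM in a, c, e and f (WT), highest in WT f as *S1pr1* was.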

How the data were processed

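RNA of MLEC was sequenced in 3 AM EC-KO and 4 WT libraries, grouped by their labels. The authors trimmed reads with Cutadapt and mapped them to GRCm38 with TopHat2 2.0.6, and the submitters' processing notes name Cufflinks and Cuffdiff. The authors deposited FPKM per library and a pooled FPKM per genotype. Their fold changes, p-values, q-values and splicing columns were not used, and the pooled FPKM only for genes listed at 0. Reads per library were estimated from the steps of low values; 58.3 to 63.3% of them lay within 0.1 read of a whole number (20.0% if evenly spread), so whole reads were not recovered and no count model was fitted. For *S1pr1*, *S1pr2*, *F2r*, *F2rl1* and *Lpar1* the deposited interval covers 0.645 to 7.48% of the gene, and for *Lpar6* 45.6%. In 1263 genes of 1 transcript with such short intervals, 54.0 to 62.9% of low values were whole reads by transcript length and 14.1 to 22.0% by interval length, so FPKM were read as values per transcript.

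Here log2(FPKM + 1) was tested with limma 3.58.1 (trend; statmod 1.5.0, R 4.3.3), adjusting over all 15604 tested genes, and with exact two-sided permutation tests (Python 3.11.15, scipy 1.17.1). The code was tested on simulated data. Genes were named by rule: all members, up to 4 genes of each pathway list by smallest p, and up to 2 genes of a marker list. The rule also took genes overlapping a member and the 3 genes most like *S1pr1*. Some further genes, marker genes among them, were named after their values were seen. Members, lists and rule were chosen with earlier results of these data known. Gene positions are those of GENCODE M21, which holds all 10 members. The alternatives were other pseudocounts, filters, scalings, limma settings, and each library left out. Part of 1 pathway list is not reported here.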

Additional observations from a re-analysis of the deposited data

Results flagged for a closer look

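Of 51 values looked at over the 4 WT libraries, 8 had 1 library beyond Dixon's 95% critical value, and in 6 of the 8 that library was WT e. Independent, normally distributed values reach that level in about 5% of groups. The 51 come from the same 4 libraries as untransformed FPKM, so the count cannot be judged against that share. Among the receptors, *S1pr3* was at 8.49 FPKM in WT e, against 0.122 to 1.09 FPKM in the other WT libraries, and *Lpar6* was at 45.3 FPKM in WT e, against 24.1 to 26.7 FPKM. The summed fibroblast markers were at 560 FPKM in WT e, against 258 to 275 FPKM. *Procr* was at 214 FPKM in WT e, against 535 to 580 FPKM, and *Plcb3* at 38.9 FPKM, against 17.0 to 19.7 FPKM. *Serpinc1* was listed at 0 in WT e, against 0.125 to 0.134 FPKM, all values near the floor. *Rgs2* was at 10.1 FPKM in WT f, against 38.7 to 39.5 FPKM. *Arrb1* was at 20.4 FPKM in WT a and listed at 0 in the other WT libraries.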

How the results depend on the processing

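Under 16 alternatives, 143 differences of the 9 tested receptors were recomputed: 121 kept their direction, 22 changed it and 0 passed a false discovery rate of 0.1 (limma). *S1pr1* stayed below 0 in all 16 (-0.37 to -0.22, smallest unadjusted p 0.012, adjusted p 0.85 to 1), as did *F2rl3* (-0.28 to -0.01 with a library left out), and *F2rl1* stayed above 0 (0.09 to 0.94). With pseudocounts of 0.1 and 0.01, *S1pr3* was at 0.19 and 0.35 and *Lpar4* at 0.05 and 0.07, and *F2rl2* moved from -0.03 to -0.28 and -1.11. With array weights, which gave WT e 0.264 and the other libraries 0.729 to 2.13, *S1pr3* was at 0.38, *Lpar4* at 0.16 and *Lpar6* at 0.10. Leaving out each library in turn gave -0.04 to 0.26 for *S1pr2*, -0.63 to 0.59 for *S1pr3*, -0.03 to 0.30 for *F2r*, -0.14 to 0.05 for *F2rl2*, -0.21 to 0.25 for *Lpar4* and -0.11 to 0.19 for *Lpar6*. The members at an unadjusted p under 0.05 then numbered 0 to 2 (0 without AM EC-KO b or d, 2 without WT e). Over all genes 10 passed a false discovery rate of 0.1, with 18 and 17 at pseudocounts of 0.1 and 0.01 and 14 to 39 with a library left out. With a library left out, 23 of the 29 pathway genes named moved by over 1.5 times at least once. Of their 458 differences, 1 changed direction (*Klf4*, -0.01 without WT e, and up to 0.40 with another library left out). Apart from array weights and libraries left out, the cause of these moves was not tested. No paired analysis was possible because the genotypes share no library letter and no source ties their libraries. Depth limits *F2rl2* most, then *S1pr3* and *Lpar4*.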
